A study of Mus musculus with 46 samples.

Results

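The 11 MycVD liver tumours of the series, of 46 RNA sequencing libraries in all, were compared with each other to find the genes whose level differs most from tumour to tumour and the genes that rise and drop together. These tumours were chosen by the genotype in their labels. They came from mice of the FVB strain in which the LAP-tTA transactivator drives a tetracycline-regulated Myc transgene in the liver, with expression on from before birth, and the MycVD form of the transgene carries the V394D substitution. The tumours carry 10 animal IDs, since ID133765 gave tumours A and B, and each ID was assumed to be 1 animal. The groups set beside them, all FVB, were 16 tumours from 7 IDs with the unmutated Myc transgene (Myc tumours) and 11 control livers from 11 IDs. A further group of 8 Myc tumours from 3 IDs, in which doxycycline had shut the transgene off for 16 h, entered no comparison here. The labels used here give neither sex nor age, and a tumour library holds whatever stroma, blood and liver was cut out with the tumour. Where a level differs, fewer cells of a type and less RNA per cell cannot be told apart.

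MYC is a transcription factor that drives growth and proliferation, and the V394D substitution is known to weaken its binding to the partner protein Miz1 (Zbtb17). Liver tumours of this kind resemble immature hepatocytes: they make fetal proteins and express imprinted genes, which are transcribed from a single parental allele and are mostly silent in the adult liver. Hepatocytes that mature switch on drug metabolism genes and secrete plasma proteins, and in inflammation they add the acute phase proteins. The labelled tissue was met by its markers in all 11 libraries. Albumin (Alb) ran from 106 to 217 eRPKM and the fetal albumin-like protein alpha-fetoprotein (Afp) from 91.0 to 215 eRPKM, against 8.11 to 19.1 eRPKM of Afp in control livers. The unit, eRPKM, is the deposited number of exonic reads per kilobase of gene and per unit of sequencing depth.

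The mouse Myc row ran from 2.67 to 9.86 eRPKM in the MycVD tumours, from 5.41 to 11.1 in Myc tumours and from 1.46 to 18.2 in control livers, so it did not separate the groups. The labels do not say whether reads of the transgene fall in that row. Recovered depth was 6.18 to 10.6 M reads per MycVD library. In 2 libraries, ID133074 and ID133079, the glycolysis gene Gapdh stood at 27.1 and 19.8 eRPKM, against 44.5 to 61.4 eRPKM in the other 9, and results that change without these libraries are named as such. Abundant genes met a ceiling of reads per kilobase: Eef1a1, a translation factor, had 1415 to 1663 in every MycVD library whatever the depth.

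Variation was scored for each gene as the standard deviation (SD) of log2(eRPKM + 0.5) over the 10 IDs, with tumour A standing for ID133765, divided by the SD expected for genes of that mean level. A gene at 1.5 times the expected SD or more was called highly variable. Of 13609 genes with at least 1 eRPKM in 3 or more IDs, 2931 were highly variable (21.5%), and 1569 reached a ratio of 2. The median SD was 0.241 on the log2 scale, and sampling of reads alone would give a median of 0.0758. Highly variable genes made up 660 of 2771 genes with a mean of 1 to 5 eRPKM, 1236 of 5000 at 5 to 20 and 979 of 5468 at 20 and above. Leaving out any single ID kept 1916 of the 2931 above the threshold. The other 1015 dropped below it without at least 1 of the IDs, and some may do so without any of several. The ID whose removal gave the lowest ratio was most often ID133074 (235 genes) or ID133079 (174 genes). The low-Gapdh libraries stood apart from the other IDs: they were the 2 lowest or the 2 highest in 21.8% of the 13609 genes and in 22.7% of the highly variable ones, while for the other 44 pairs of IDs that share of all genes had a median of 3.63% and reached at most 10.2%. Their part in the ranking was not tested beyond the values without them given with the results.

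**Figure D1:**
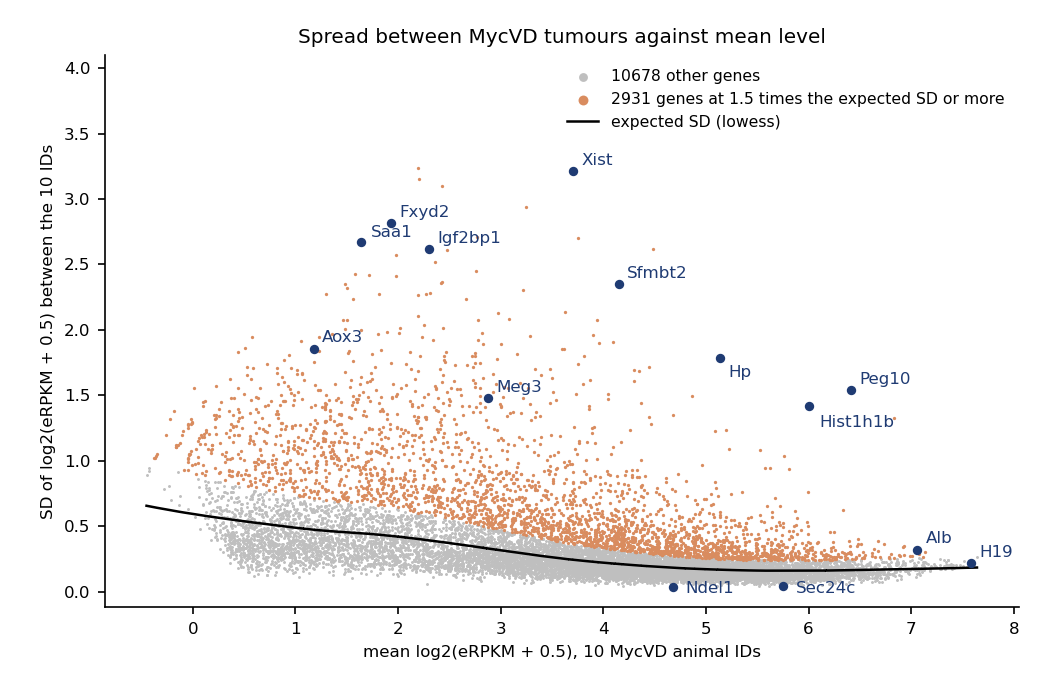
Each point is 1 gene: mean log2(eRPKM + 0.5) over the 10 MycVD IDs (x axis) against the SD of the same values (y axis), with the expected SD as a line and the 2931 highly variable genes in orange. Xist, Sfmbt2, Hp and Peg10 lie far above the line at their level, while H19, Ndel1 and Sec24c lie near or below it.

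At a mean of 20 eRPKM or more the genes with the highest ratios were Xist (13.2), Sfmbt2 (11.2), Hp (10.7), Peg10 (9.42), Tff3 (8.92), Hist1h1b (8.92), Fabp2 (8.91) and Lcn2 (8.61). Xist is the RNA that silences an X chromosome in female cells, Sfmbt2 an imprinted Polycomb group gene, Hp the blood protein haptoglobin, Tff3 a mucosal peptide, Hist1h1b a linker histone, Fabp2 a fatty acid carrier of the gut and Lcn2 an iron-trapping defence protein. At a mean of 5 to 20 eRPKM the list was led by the Y-linked genes Ddx3y and Eif2s3y, then Anxa13, Orm1, Clic6, Igf2bp1, Fxyd2 and Pck1. At a mean of 1 to 5 eRPKM it held Vmn1r53, Pik3c2g, Prtg, Asb4, Aox3, Lgi2, Ubd and Clec4f. At the other end Ndel1, a dynein regulator, lay between 24.3 and 25.9 eRPKM in all 10 IDs, an SD of 0.19 times the expected.

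Gene families differed in how many members were highly variable, and these counts are descriptions set beside the 21.5% of all genes. All 22 measurable genes of drug and bile acid metabolism were highly variable, as were 18 of 19 acute phase genes, 11 of 12 neutrophil genes, 13 of 15 macrophage genes, 12 of 14 periportal genes, 11 of 13 erythroid genes, 17 of 21 interferon-stimulated genes and 17 of 23 stellate cell and matrix genes. Growth genes varied little: 1 of 20 mitosis genes, 1 of 20 DNA replication genes and 1 of 22 ribosome biogenesis genes were highly variable. The proliferation marker Mki67 ran from 78.5 to 121 eRPKM with a median of 108, and the replicative helicase subunit Mcm2 from 51 to 68.8 with a median of 58.6. T and NK cell genes (1 of 11) and cholesterol and fat synthesis genes (2 of 15) were also mostly near or below the expected spread.

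**Figure D2:**
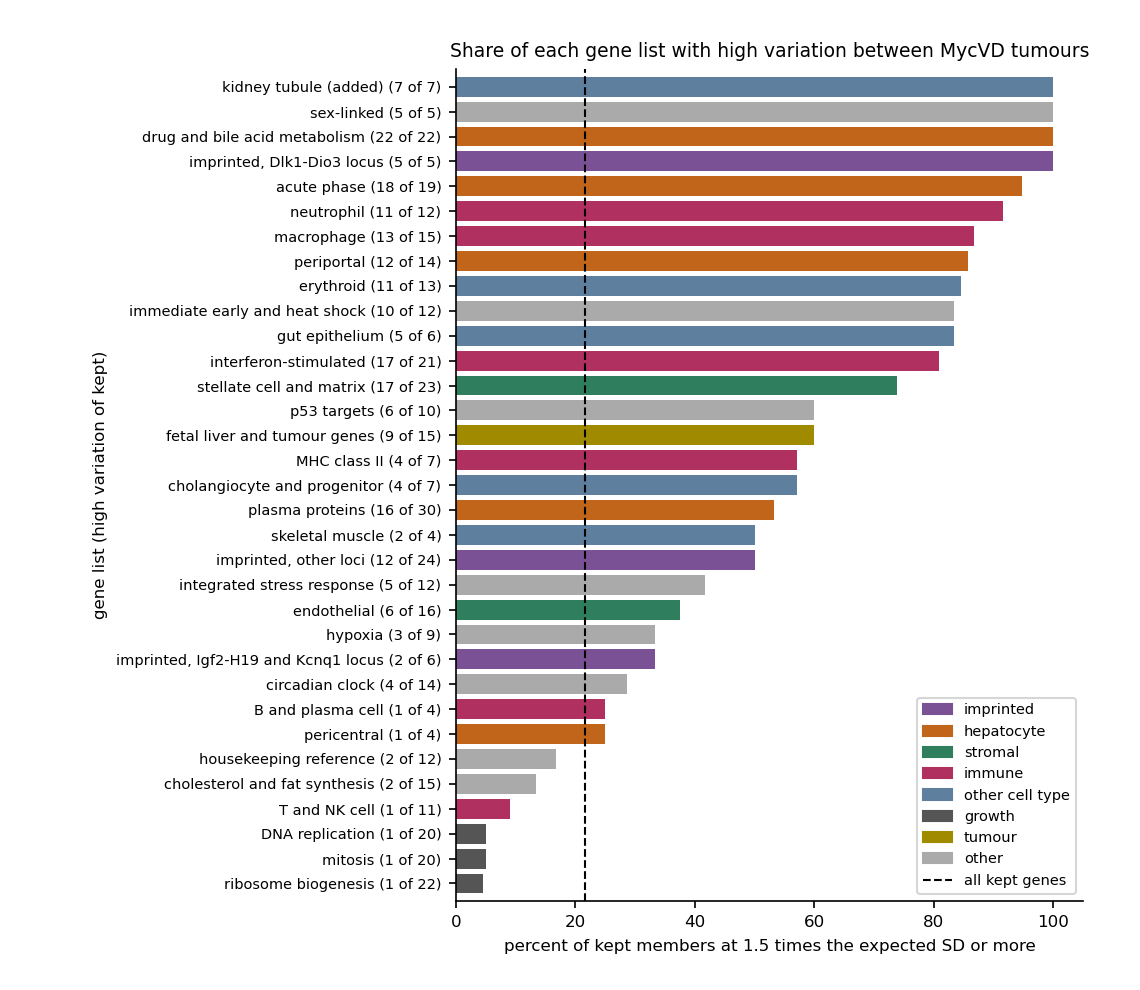
Bars give the percent of measurable members of each gene list that were highly variable between MycVD tumours, with the counts beside each name and the share of all genes (21.5%) as a dashed line. Drug metabolism, acute phase and neutrophil genes stand at the top, and mitosis, DNA replication and ribosome biogenesis at the bottom with 1 member each.

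After Xist, the named gene with the highest ratio at a mean of 20 eRPKM or more was Sfmbt2, a Polycomb group gene that is paternally expressed in early development and carries a large microRNA cluster in an intron. Its level was 55.2 eRPKM in ID133764, 63.2 in ID133762, 70.5 in ID134668, 80.2 in ID133763, and 71.1 and 58.8 in tumours A and B of ID133765. It was 24.1 eRPKM in ID133761, 6.10 in ID134664, 3.77 in ID133074, 2.84 in ID134660 and 0.405 in ID133079. The 6 libraries with the highest levels lay above 55 eRPKM, the other 5 below 25, and control livers stayed at 0.0807 to 0.352 eRPKM. Myc tumours reached at most 5.64 eRPKM, with a median of 0.585. RefSeq places 71 microRNA genes inside Sfmbt2, and the deposited table holds 22 of them, of which 21 were measurable. All 21 were highly variable, as were 307 of 361 rows named as small RNA genes in all, and their correlation with Sfmbt2 over the 10 IDs had a median of 0.961 and ranged from 0.772 to 0.998. These rows count reads of long RNA over the hairpin genes and can include reads of the host transcript; they do not measure mature microRNAs.

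Some genes usually expressed in kidney tubule were high in the same 6 libraries, and others were not. Fxyd2, the gamma subunit of the sodium pump, ran from 13.6 to 30.6 eRPKM in these 6 and from 0 to 0.371 in the other 5. Pax8, a transcription factor of kidney and thyroid development, ran from 6.33 to 18.5 eRPKM in the 6 and from 0 to 0.487 in the other 5. Cdh16, known as kidney-specific cadherin, ran from 3 to 26.3 against 0 to 0.468 eRPKM. Slc22a6, an organic anion transporter, ran from 2.15 to 8.97 against 0.702 to 1.47 eRPKM. None of these 4 ranges overlapped. The 6 libraries were set apart by their Sfmbt2 values and include both tumours of ID133765. The share of all genes that divide the libraries in this way was not counted. The anion exchanger gene Slc4a9 (23.6 to 50.04 against 2.22 to 16.8 eRPKM) and the folate receptor gene Folr1 (18.2 to 40.8 against 2.21 to 8.83 eRPKM), chosen after their values were seen, split the libraries alike. Of a list of 17 kidney tubule genes, added after the values were seen, 7 were measurable in MycVD tumours and all 7 were highly variable, but their median pairwise correlation was -0.02. The other 3 did not divide the libraries in this way: the endocytic receptor genes Lrp2 (0.781 to 43.1 eRPKM) and Cubn (0.203 to 7.82), and the water channel gene Aqp1 (11.5 to 39.7), overlapped between the 6 libraries and the other 5. The summed level of the list was 26.4 to 135 eRPKM with a median of 72.4, against 16.4 to 84.2 in Myc tumours and 46.8 to 96.0 in control livers, where Aqp1 alone was at 45.5 to 94.8. Of the 10 that were not measurable, Aqp2 and Kap were listed at 0 in all 11 libraries, Umod reached at most 0.102, Slc12a1 0.129 and Slc34a1 0.103 eRPKM, and the highest was Slc5a2 at up to 1.02.

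A further set, put together after its values were seen, ran the opposite way across the tumours. The share of all genes that run this way was not counted. Lin28b, an RNA-binding protein that blocks let-7 maturation in fetal cells, was at 7.17 to 14.3 eRPKM in ID133074, ID133079, ID134660, ID134664 and ID133761 and at 0 to 0.176 in the other 6 libraries. Anxa13, an epithelial annexin, was at 12.2 to 48.4 eRPKM in those 5 libraries and at 0.392 to 2.07 in the other 6. Tff3 split in the same way, at 36.5 to 98.1 against 1.77 to 7.51 eRPKM. Igf2bp1, a fetal RNA-binding protein, was high in only 4 of the 5, at 44.3 eRPKM in ID133074, 50.9 in ID133079, 50.6 in ID134660 and 17.0 in ID133761, and at 0.891 in ID134664 and 0.107 to 1.55 in the other 6. Hist1h1b was at 128 to 163 eRPKM in the 5 libraries with high Lin28b, at 87.5 in ID133762 and at 12.8 to 35.2 in the remaining 5. Myc tumours ran from 13.8 to 22.7 eRPKM of Lin28b, 122 to 199 of Hist1h1b and 32.9 to 91.6 of Tff3, and over wider ranges of Igf2bp1 (4.47 to 50.2) and Anxa13 (2.88 to 52.6).

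Xist, at 92.1 to 115 eRPKM in 6 libraries and at 0.127 to 4.26 in 5, marks female tissue. Its division of the libraries was not the same throughout. ID133762 had high Sfmbt2 with 3.11 eRPKM of Xist, and ID133074, a low-Gapdh library, had low Sfmbt2 with 92.5. The other 9 libraries had both high or both low. With a term for Xist in the model, the SD ratio was 11.4 for Sfmbt2, 7.12 for Igf2bp1 and 5.94 for Fxyd2. The expected SD was fitted again with that term, so these ratios do not measure the part of sex in the division. The part of sex was not tested.

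Imprinted genes of separate loci behaved differently from each other. All 5 measurable genes between Dlk1 and Dio3 were highly variable, against 2 of 6 at the Igf2-H19 and Kcnq1 loci and 12 of 24 at other loci. H19, a noncoding RNA, ran from 149 to 242 eRPKM with a median of 198, and the growth factor gene Igf2 from 132 to 209 with a median of 160, an SD of 1.19 and 1.08 times the expected. Both were near the ceiling of reads per kilobase.

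Tumour ID133762 stood apart at 2 imprinted loci. Peg10, a gene derived from a retrotransposon and needed for the placenta, was at 3.75 eRPKM in this tumour and at 90.3 to 152 in the other 10 libraries. Its neighbour Sgce, epsilon-sarcoglycan, was at 0.564 against 8.47 to 16.2 eRPKM, and the nearby Ppp1r9a, a neuronal actin-binding protein, at 1.39 against 9.91 to 16.5. The noncoding RNAs of the Dlk1-Dio3 locus, expressed from the maternal allele, were low in the same tumour: Meg3 was at 0.0948 against 2.96 to 24.6 eRPKM, Rian at 0.597 against 9.28 to 47.8 and Mirg at 0.144 against 1.85 to 17.1. In all 6 genes the tumour lay below every other MycVD library. Its Meg3, Rian and Mirg lay within the range of control livers (0.0777 to 0.347, 0.588 to 1.26 and 0 to 0.176 eRPKM), its Peg10 just above that range (0.298 to 3.18) and its Sgce and Ppp1r9a below it (1.06 to 2.82 and 3.07 to 4.92). The paternally expressed genes of the Dlk1-Dio3 locus were not low there: Dlk1, which encodes a membrane ligand related to Notch ligands, was at 17.0 eRPKM against 2.18 to 25.6, and Rtl1 at 6.6 against 2.54 to 11.2. The variation of Peg10 rested mostly on this tumour, since its ratio of 9.42 became 1.58 without it, while Rian kept a ratio of 4.01 of its 7.98.

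The Dlk1-Dio3 locus also holds a microRNA cluster. RefSeq lists 61 microRNA genes between Dlk1 and Dio3, of which 55 are in the deposited table and 40 were measurable. All 40 were highly variable, near the share of small RNA rows in all (307 of 361). In 36 of the 40, ID133762 was the lowest of the 10 IDs, and 35 were listed at 0 there. The highest ratio of these belonged to Mir3070b (6.48), at 0 eRPKM in ID133762 and 8.49 to 36.2 in the others, on a mean of only 11.2 reads. Mir758 (ratio 4.96) was at 0 in ID133762 and at 3.16 to 21 eRPKM elsewhere, and Mir1193 (4.49) at 0 in ID133762 and ID133763 and at 2.12 to 20.01 elsewhere. The 40 rows carry 75 mature sequences in RefSeq with 68 different seeds, and 6 seeds were shared by more than 1 sequence. MicroRNAs with a shared seed pair with the same letters of their targets, so 4 of the shared seeds are shown with their sequences; capitals mark the seed, bases 2 to 8 from the 5′ end, and positions are those of RefSeq on GRCm38.p6, plus strand. The microRNAs printed were chosen after their values were seen.

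miR-3070-2-3p from Mir3070b, chr12:109588648-109588669: uGGUGCUAuggucagggguaga

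miR-3070-3p from Mir3070a, chr12:109587999-109588020: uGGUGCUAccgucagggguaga

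miR-758-5p from Mir758, chr12:109712823-109712843: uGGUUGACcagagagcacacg

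miR-1197-5p from Mir1197, chr12:109712361-109712381: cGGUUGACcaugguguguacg

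miR-379-5p from Mir379, chr12:109709065-109709085: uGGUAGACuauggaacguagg

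miR-1193-5p from Mir1193, chr12:109715716-109715735: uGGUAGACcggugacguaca

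miR-379-3p from Mir379, chr12:109709102-109709123: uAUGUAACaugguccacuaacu

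miR-411-3p from Mir411, chr12:109710225-109710246: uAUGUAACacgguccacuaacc

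Within pairs sharing a seed the rows were not equally low in ID133762. Mir1197 was at 0 in ID133762 and also in ID133764 and tumour B of ID133765, and reached 7.85 eRPKM elsewhere. Mir3070a was at 1.80 eRPKM in ID133762, its lowest, and 5.75 to 22.7 in the others. Mir411 was at 1.95 eRPKM in ID133762 and at 1.56 to 10.5 elsewhere, and Mir379 had a mean of 0.4 reads, too few to order the tumours.

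**Figure D3:**
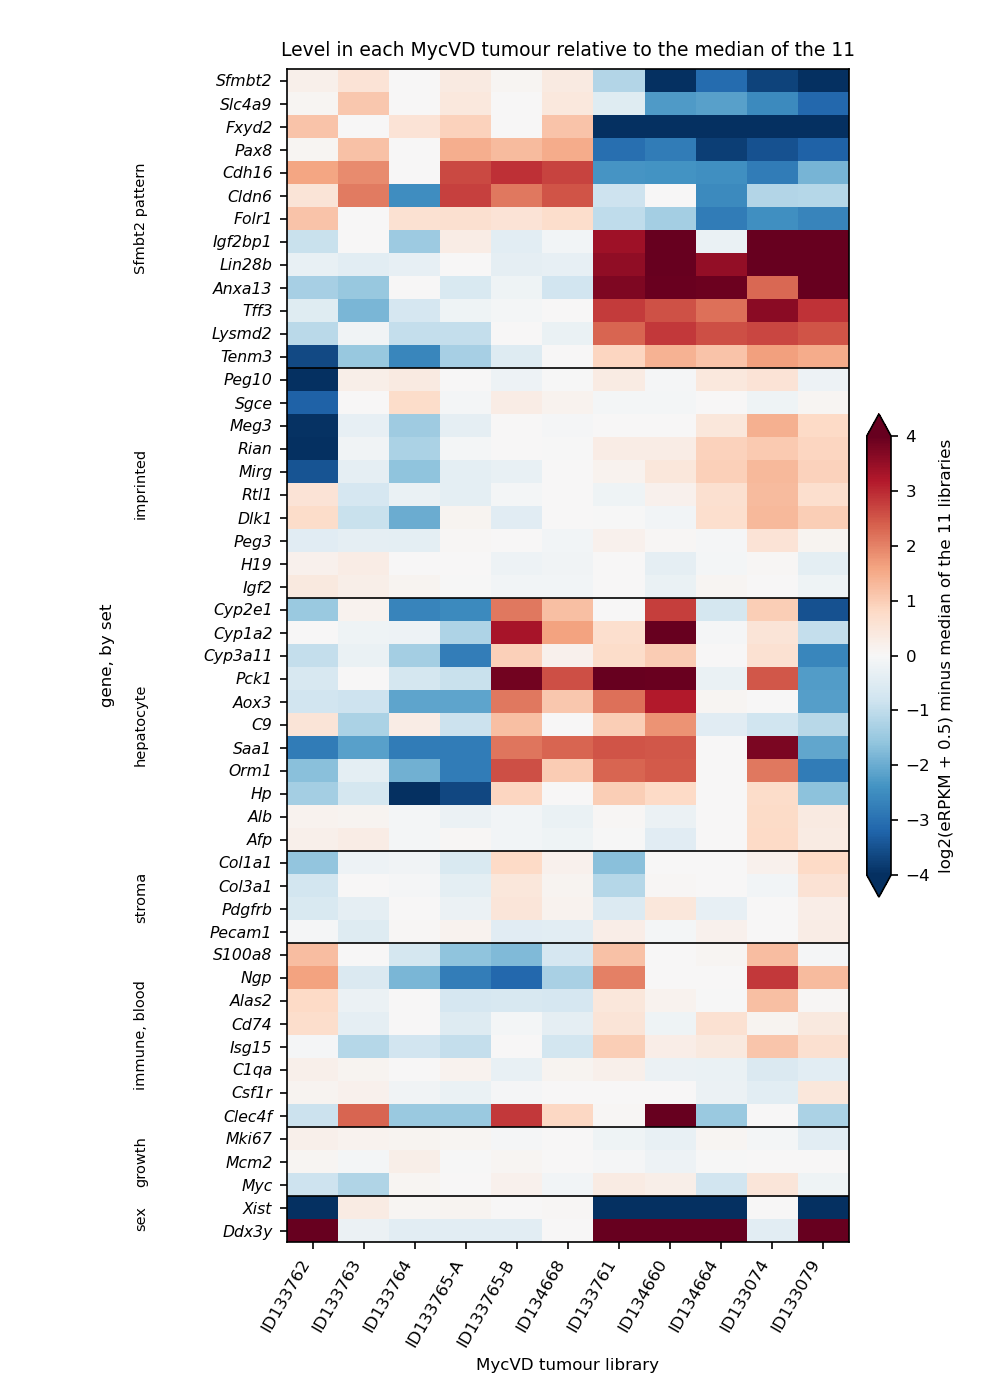
Rows are genes by set and columns the 11 MycVD libraries; colour is log2(eRPKM + 0.5) minus the median of the 11, from blue (lower) to red (higher), cut at 4 in either direction. Sfmbt2, Fxyd2 and Pax8 are low where Lin28b and Anxa13 are high, Peg10, Meg3 and Rian are lowest in ID133762, and Mki67 and Mcm2 are almost uncoloured.

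Hepatocyte genes also varied between tumours, and not all of them together. Cyp2e1, a cytochrome P450 that oxidises ethanol, was at 0.440 eRPKM in ID133079, 1.18 in ID133764, 1.30 in tumour A of ID133765, 3.32 in ID133762, 5.93 in ID134664, 10.1 in ID133761, 11.1 in ID133763, 20.5 in ID133074, 23.7 in ID134668, 45.6 in tumour B of ID133765 and 71.6 in ID134660. Every value lay below the control livers, at 122 to 235 eRPKM, and Myc tumours covered 0.897 to 61.5. Cyp1a2, a P450 that metabolises caffeine, was at 28 eRPKM in ID134660 and 12.9 in tumour B of ID133765, and at 0.0701 to 3.57 in the other 9. The median pairwise correlation among the 22 drug and bile acid genes was 0.73, against 0.00976 over pairs of all genes. Plasma proteins were less variable, with 16 of 30 above the threshold; the liver-secreted complement protein C9 ran from 4.94 to 44.9 eRPKM with a median of 10.8. Gluconeogenesis genes varied widely, Pck1 from 0.254 to 59.1 eRPKM with a median of 2.77, and G6pc from 1.66 (ID133079) to 71.4 with a median of 46.0.

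Acute phase genes gave some of the widest ranges. Saa1, serum amyloid A, was listed at 0 in ID133762, ID133764 and tumour A of ID133765, at 0.265 eRPKM in ID133763, 0.313 in ID133079 and 2.96 in ID134664. It reached 14.7 in tumour B of ID133765, 16.7 in ID134668, 18.8 in ID134660, 19.4 in ID133761 and 47.0 in ID133074. Haptoglobin (Hp) ran from 3.52 to 127 eRPKM with a median of 51.8, Orm1, an alpha-1-acid glycoprotein, from 0.864 to 51.9 with a median of 7.90, and Lcn2 from 0.622 to 97.8 with a median of 17.9, each over the 10 IDs. Only ID133074 reached the control range of Saa1 (29.6 to 94.3 eRPKM), and no MycVD library reached that of Orm1 (96.1 to 158) or Hp (147 to 235). The 3 genes most like Saa1 over the 10 IDs were Saa2 (r = 0.983), a near copy whose reads may be shared, Serpina3n (0.948) and Orm1 (0.930).

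Tumours A and B of ID133765 showed which patterns could differ inside 1 animal. They were alike in Sfmbt2 (71.1 and 58.8 eRPKM), Fxyd2 (26 and 13.6), Lin28b (0.176 and 0.0244), Meg3 (6.81 and 8.92) and Xist (98.7 and 92.1). They differed in Cyp2e1 (1.30 in A, 45.6 in B), Saa1 (0 and 14.7), Hp (4.74 and 117), Pck1 (1.41 and 50.7) and Clec4f (0 and 9.45), a Kupffer cell receptor. Over 2215 highly variable genes with a mean of at least 5 eRPKM the median difference between A and B was 0.297 on the log2 scale. Between tumours of different IDs it was 0.507, over a range of 0.177 to 0.722, and the A to B difference ranked 7 of 55, counted from the smallest. These genes were chosen for a high SD between IDs, without tumour B, so a larger difference between IDs is partly built in. Over all genes compared, the medians were 0.146 for A and B and 0.210 between IDs. The rank also depends on the measure. By root mean square, A and B differed by 0.493, more than ID133074 and ID133079 did (0.461). With 1 such animal there is no test. Among Myc tumours 5 IDs gave several tumours. The median SD of the 2215 genes there was 0.281 within IDs and 0.266 between tumours A of the 7 IDs. Over all 10468 genes the order was the other way, at 0.164 within IDs and 0.178 between IDs. Gapdh was at 16.1 to 25.4 eRPKM in tumours B of ID125320, ID128992 and ID128285 and tumours A and C of ID125324. All of these entered the SD within IDs, and only tumour A of ID125324 entered the SD between IDs. Their part in these values was not tested.

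Of 23 stellate cell and matrix genes 17 were highly variable, with a median pairwise correlation of 0.48. Collagen I (Col1a1) was at 9.46 eRPKM in ID133761 and 9.96 in ID133762, at 20.3 in tumour A of ID133765 and at 26.8 to 54.4 in the other 8. The matrix proteoglycan gene Lum ran from 4.43 to 29.7 eRPKM with a median of 9.73, and Bgn, biglycan, from 12.6 to 47.0 with a median of 27.6. Endothelial genes were highly variable in 6 of 16 cases; the junction protein gene Pecam1 ran from 14.4 to 26.2 eRPKM with a median of 21.4, and its ratio was 1.43. The median pairwise correlation of endothelial genes was 0.28; the stellate and endothelial lists were not tested against each other. Epcam, an epithelial adhesion molecule of bile duct and progenitor cells, ran from 0.870 to 24.8 eRPKM over the 11 libraries, high in both tumours of ID133765 (21.1 and 24.8) and low in ID133762 and ID133764.

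Neutrophil and erythroid genes were high and low in many of the same libraries, high in ID133074, ID133762 and ID133761 and low in ID134668 and both tumours of ID133765. Neutrophil genes had a median pairwise correlation of 0.90, and their summed level ran from 41.9 eRPKM in tumour A of ID133765 to 662 in ID133074, with a median of 148. S100a8, a calcium-binding protein of neutrophil granulocytes, was at 126 eRPKM in ID133074 and ID133762 and at 119 in ID133761, at 32.3 to 55.5 in 6 libraries, and at 16.9 and 15.2 in tumours A and B of ID133765. Ngp, a neutrophil granule protein, ran from 1.37 to 91.1 eRPKM with a median of 12.4 over the 10 IDs. Erythroid genes had a median pairwise correlation of 0.92, with Alas2, the first enzyme of haem synthesis in red cells, at 19.2 to 71.5 eRPKM and Slc4a1, the red cell anion exchanger, at 2.22 to 61.8 over the 10 IDs. Macrophage genes were nearly uncorrelated among themselves (median 0.01): Csf1r, the receptor for macrophage growth factor, ran only from 12.6 to 23.5 eRPKM, while the Kupffer cell gene Clec4f ran from 0 to 28.4 and Vsig4 from 0 to 17.5. MHC class II genes had a median pairwise correlation of 0.80, with Cd74 from 38.3 to 90.1 eRPKM. Interferon-stimulated genes had a median pairwise correlation of 0.60, with Isg15 at 5.13 to 26.3 eRPKM and Iigp1 at 4.51 to 54.0. The T cell receptor component Cd3e stayed at 0.268 to 1.22 eRPKM.

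Of 38 gene pairs tested across the 10 IDs, 13 passed a permutation test (two-sided, Benjamini-Hochberg over the 38), all of them positive, and each kept r of at least 0.5 without the 2 IDs farthest from the median. Pairs are given as Pearson r with its adjusted p, Spearman rho with its adjusted p, and r without those 2 IDs. The maternally expressed Meg3 and Rian gave r = 0.985 (adjusted p = 0.00038), rho = 0.976 (0.00057) and 0.977 without ID133074 and ID133762. Meg3 and Mirg gave the same r with rho = 0.988 (0.00057) and again 0.977 without them. Peg3, a zinc finger gene, and its neighbour Usp29 gave r = 0.948 (0.000665), rho = 0.939 (0.00317) and 0.90 without the same 2. Usp29 was low throughout, at 0.125 to 1.69 eRPKM. H19 and Igf2 gave r = 0.858 (0.00882), rho = 0.758 (0.041) and 0.731 without ID133079 and ID134660. That relation did not hold with other treatments of depth: r of H19 and Igf2 was -0.607 (adjusted p = 0.124) with a term for depth, 0.328 (0.566) after a correction for shared read starts and 0.165 (0.728) after quantile normalisation. The genes most like H19 were Malat1, Rpl4 and Rps20, a nuclear RNA and 2 ribosomal protein genes, with r from 0.973 to 0.982.

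Peg10 and Sgce gave r = 0.962 (adjusted p = 0.11) with rho = 0.0546 (0.941) and 0.283 without ID133074 and ID133762, so their relation rested on ID133762. Meg3 and Dlk1, on opposite parental alleles of 1 locus, gave r = 0.265 (0.603), rho = 0.491 (0.327) and 0.952 without ID133074 and ID133762. Without ID133762 alone their r was 0.951 (adjusted p = 0.00154). Without both low-Gapdh libraries it was -0.0657.

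Of the 4 hepatocyte pairs 3 passed. Cyp2e1 and Cyp1a2 gave r = 0.852 (adjusted p = 0.00095), rho = 0.855 (0.0183) and 0.798 without ID133079 and ID134660. C9 and the P450 gene Cyp2f2 gave r = 0.853 (0.00789), rho = 0.77 (0.041) and 0.633 without ID134660 and ID133761. Saa1 and Orm2 gave r = 0.83 (0.0145), rho = 0.816 (0.0261) and 0.702 without ID133074 and ID133761. The complement and clotting factor genes C9 and F11 gave r = 0.36 (0.53), rho = 0.491 (0.327) and 0.11 without ID134660 and ID133761, and did not pass. Alb and the fetal gene Afp gave r = 0.914 (0.0013), rho = 0.83 (0.0237) and 0.735 without ID133074 and ID133079, the libraries with the highest levels of both. Without those low-Gapdh libraries the adjusted p was 0.0594 for Saa1 and Orm2 and 0.0709 for Alb and Afp. C9 and Afp gave r = -0.696, which missed the threshold (adjusted p = 0.0638). Alb and Afp reached levels like those of H19 and Igf2, near the ceiling of reads per kilobase. The genes most like Afp were Ddb1, Trf and Sf3b2, with r from 0.981 to 0.989, and Ddb1 and Sf3b2 were not highly variable.

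In the stroma Col1a1 and Col3a1 gave r = 0.965 (adjusted p = 0.00095), rho = 0.842 (0.0208) and 0.926 without ID133762 and ID133761. Col1a1 and Pdgfrb, the growth factor receptor of stellate cells, gave 0.80 (0.0124), rho = 0.818 (0.0237) and 0.568 without the same 2, and an adjusted p of 0.0709 without the low-Gapdh libraries. Col1a1 and Pecam1 gave -0.122 (0.847), and the endothelial pair Pecam1 and Kdr gave 0.33 (0.586). In blood cells S100a8 and S100a9 gave r = 0.969 (0.000665), rho = 0.915 (0.00433) and 0.943 without ID133074 and tumour A of ID133765. Hbb-b1, a beta-globin, and Alas2 gave 0.766 (0.0284), rho = 0.758 (0.041) and 0.801 without ID133079 and ID134668. The Hbb-b1 and Alas2 pair lost its call without ID133762 (adjusted p = 0.0564), ID133765 (0.0704) or ID134668 (0.0726). The other immune pairs did not pass: H2-Aa and Cd74 gave r = 0.653 (0.0938), Csf1r and C1qa 0.145 (0.833), and Cd3e and Cd8a -0.0745 (0.884). Krt19, a bile duct keratin, and Epcam gave 0.869 (0.00882), rho = 0.915 (0.00433) and 0.796 without ID133074 and tumour A of ID133765, with Krt19 itself at no more than 2.16 eRPKM. Across classes no tested pair passed apart from Alb and Afp, and C9 and Afp alone had an unadjusted p under 0.05 (0.0235). Those that missed include C9 and Col1a1 at r = -0.425 (0.461), H19 and Meg3 at -0.41 (0.476), Col1a1 and Csf1r at 0.113 (0.847) and Mki67 and C9 at -0.189 (0.817).

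**Figure D4:**
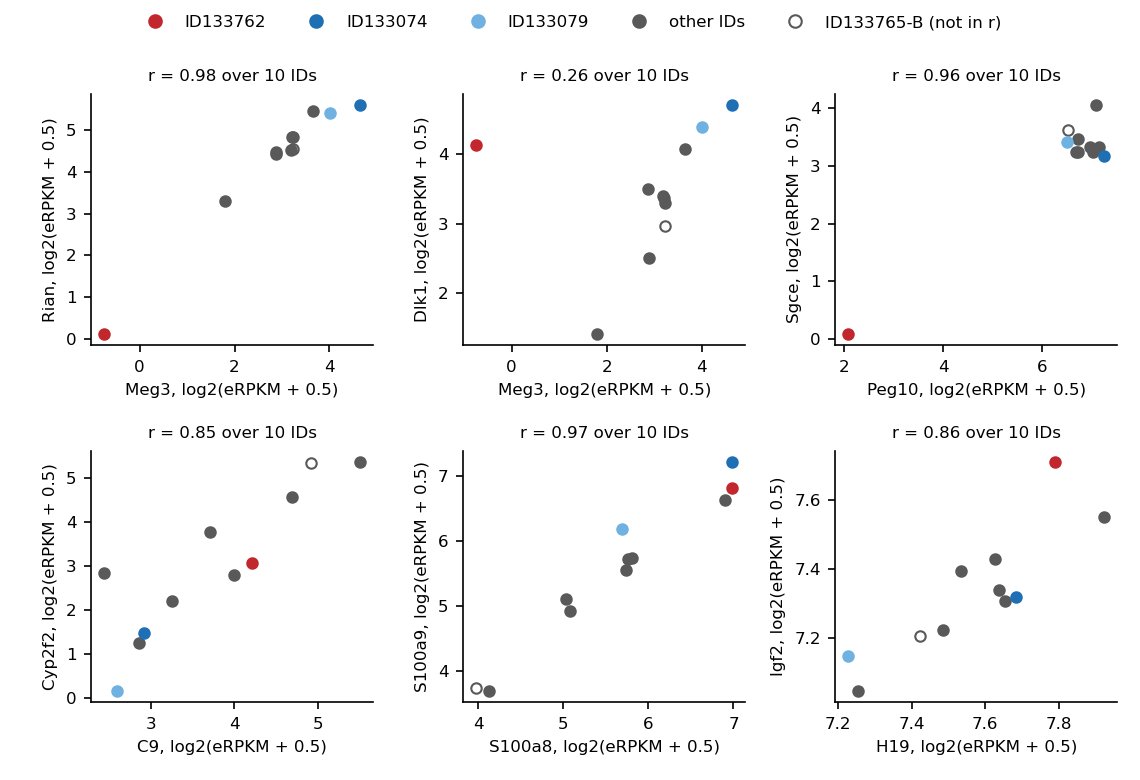
Each panel plots log2(eRPKM + 0.5) of 1 gene against another over the MycVD IDs, with ID133762, ID133074 and ID133079 coloured and tumour B of ID133765 as an open circle that did not enter r. ID133762 lies far from the rest for Meg3, Rian, Peg10 and Sgce, while the C9 and S100a8 panels hold a spread of tumours along the line.

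The same patterns were looked for among 7 Myc IDs, 1 tumour each. Of 10 pairs chosen from the MycVD values, none passed an exact permutation test (adjusted p of 0.615 to 0.647), and the lowest unadjusted exact p was 0.156. Sfmbt2 and Lin28b gave r = 0.41 (exact permutation p = 0.376), and Sfmbt2 and Fxyd2 gave 0.402 (exact permutation p = 0.427), where Fxyd2 reached only 0.38 eRPKM. Of the genes highly variable in MycVD tumours and measurable in both groups, 45.0% were also highly variable in Myc tumours, against 20.7% of all such genes. In control livers the share was 43.1% against 18.2%.

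Spread was then compared between groups with limma on the absolute deviations of each library from its group mean, in log2 units, over 14493 genes. In MycVD tumours 540 genes were more variable than in Myc tumours (3.73% of genes tested) and 23 less variable (0.159%). Of the 540, 465 were highly variable by the ratio above, which held for 21.5% of all genes scored. Both calls use the spread of the same MycVD values, so their overlap is no support for either. In place of the 540, the count was 223 with deviations taken from the group median, 320 with the last tumour of each ID, 139 when only genes with a mean of at least 5 eRPKM were tested, and 849 without the low-Gapdh libraries. Among 10133 genes with a mean of at least 5 eRPKM in both groups, 249 were more variable (2.46%) and 4 less (0.0395%) in the fit of all genes.

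Lin28b was 2.07 ± 0.10 (SE) log2 units more variable in MycVD tumours (limma adjusted p = 2.77e-14) and Fxyd2 2.48 ± 0.14 (limma adjusted p = 2.5e-13). Fxyd2 was near 0 in Myc tumours (0 to 1.32 eRPKM) and entered the test through its high MycVD libraries, so its spread in Myc tumours had to be small on this scale and its difference restates its level. Anxa13 was more variable by 2.08 ± 0.21 (1.03e-07 in limma), Lysmd2 by 1.57 ± 0.16 (6.1e-08) and Tenm3, a cell adhesion protein, by 1.61 ± 0.25 (0.000115). Tenm3 lay between 15.9 and 23.8 eRPKM in Myc tumours and between 0.185 and 26.1 in MycVD tumours. Sfmbt2 was more variable by 1.58 ± 0.29 (limma adjusted p = 0.00103) and Igf2bp1 by 1.68 ± 0.32 (0.00144). Sfmbt2 was at 0.397 to 2.24 eRPKM in the Myc tumours compared and entered the test through its MycVD libraries. Its difference therefore partly restates its level. Both Sfmbt2 and Igf2bp1 lost the call in limma with a depth term (adjusted p = 0.101 and 0.19). They also lost it without the low-Gapdh libraries of all groups (0.0642 and 0.29) and with deviations from the median (0.121 and 0.375).

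Among the lists, calls of higher spread than in Myc tumours are set beside the 3.73% of all genes. They were 2 of 6 for gut genes (Tff3 and Fabp2) and 3 of 18 for fetal and tumour genes (Lin28b, Igf2bp1 and Prom1). Drug and bile acid metabolism had 5 of 28 (Ces3a, Ces3b, Aox3, Slco1a1 and Dio1) and neutrophil genes 3 of 12 (Retnlg, Mmp8 and Mmp9). Interferon-stimulated genes had 3 of 21 (Oas2, Irf7 and Iigp1) and acute phase genes 3 of 19 (Saa1, Saa2 and Crp). The kidney list, added after its values were seen, had 4 of 8 (Pax8, Cdh16, Fxyd2 and Cubn) and is not read against that share. Its first 3 reached at most 1.35, 0.778 and 1.32 eRPKM in Myc tumours, so their calls restate their levels. Of the imprinted genes 1 of 5 in the Dlk1-Dio3 list (Dlk1), 0 of 6 in the Igf2-H19 and Kcnq1 list (0 also at an unadjusted limma p under 0.05) and 2 of 28 in the list of other loci (Asb4 and Sfmbt2) were called. Dlk1 was at 20.7 to 27.6 eRPKM in Myc tumours and at 2.18 to 25.6 in MycVD tumours (difference 0.67 ± 0.19, limma adjusted p = 0.044). Saa1 was at 0 to 1.25 eRPKM in the Myc tumours compared, so its difference partly restates its level, as for Sfmbt2. No mitosis, DNA replication or ribosome biogenesis gene was called in either direction by limma at the adjusted threshold, and at an unadjusted p under 0.05 there were 0 of 20, 0 of 20 and 1 of 22. Peg10, decided by ID133762, was not called (0.777 ± 0.38, limma adjusted p = 0.32). The acute phase gene Il1rn, keratin Krt8, the interleukin 22 receptor gene Il22ra1 and the protease gene Mmp12 were among the 23 that varied less; Krt8 ran from 87.0 to 113 eRPKM in MycVD and from 60.2 to 109 in Myc tumours.

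Against control livers 1364 genes were more variable in MycVD tumours (9.41%) and 520 less variable (3.59%). Among 8867 genes with a mean of at least 5 eRPKM in both groups these counts were 497 (5.61%) and 297 (3.35%). Saa1 was more variable by 2.02 ± 0.27 (limma adjusted p = 3.81e-06) and Pck1 by 1.83 ± 0.25 (7.63e-06). Of 28 drug and bile acid genes 16 were more and 2 less variable than in control livers, and of 13 erythroid genes 9 were more and 1 less. H19 was less variable by -1.68 ± 0.30 (0.000248 in limma): control livers ran from 0.189 to 43.6 eRPKM and MycVD tumours from 149 to 242, near the ceiling. Of 20 DNA replication genes 10 were less variable than in control livers, where these genes are low (Mcm2 at 1.63 to 16.0 eRPKM), and none more.

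**Figure D5:**
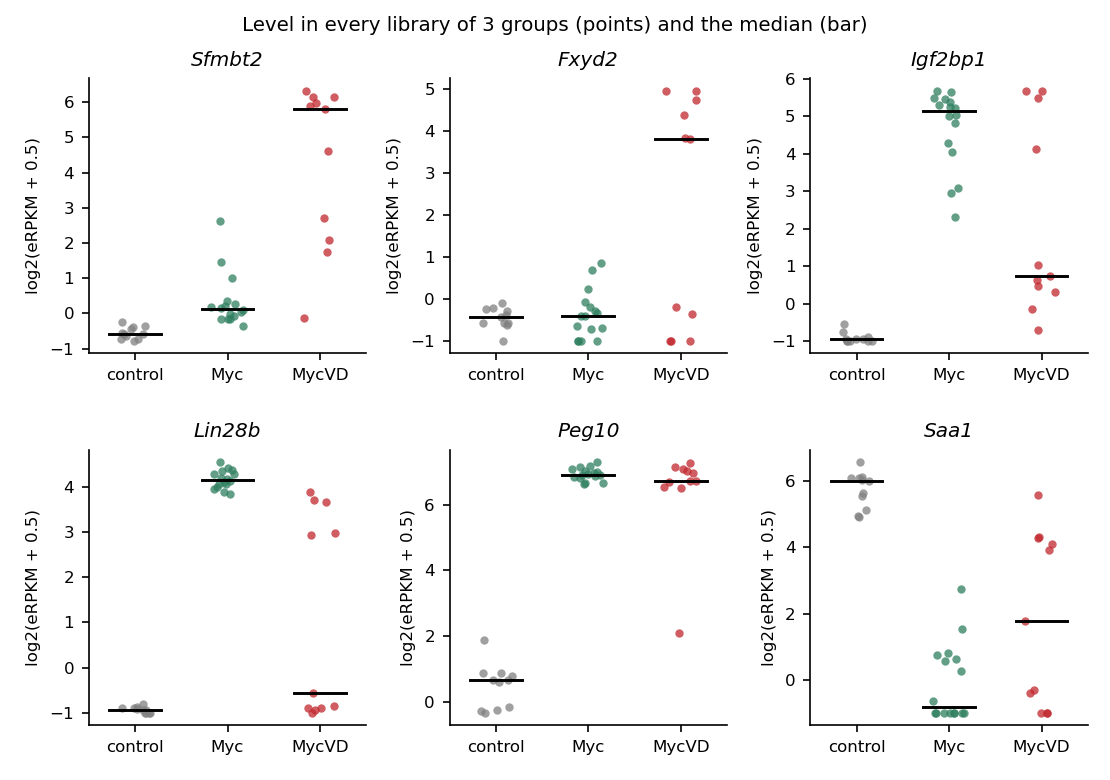
Points are single libraries and bars the group medians, as log2(eRPKM + 0.5), for control livers, Myc tumours and MycVD tumours. Sfmbt2, Fxyd2, Igf2bp1 and Lin28b divide the MycVD tumours into high and low libraries, and Peg10 is low in 1 MycVD tumour.

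Promoter sequence was set beside the ranking as a feature it did not use. The letters TATAAA were searched on the gene's strand between 40 and 20 bases before the start site in the RefSeq promoter table (GRCm38.p6). They were present in 71 of 1840 matched highly variable genes (3.86%), in 52 of 925 with a ratio of at least 2 (5.62%), in 97 of 8173 other measurable genes (1.19%) and in 628 of 32851 windows of the whole table (1.91%). Among the highly variable genes that held it were G6pc, S100a8, Cyp2e1, Apoa5, Ppbp, Meg3 and Cp. Neither of the 2 windows of Sfmbt2 and not the window of Saa1 held these letters there, and 1 of 2 windows of Meg3 did. The last 60 bases before the start site are printed for a gluconeogenic, a neutrophil, a drug-metabolising and an imprinted gene, with the match in capitals; a match is a run of letters and was not tested as a binding site.

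G6pc, chr11:101367656-101367715, plus strand: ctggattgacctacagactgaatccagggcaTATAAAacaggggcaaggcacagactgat

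S100a8, chr3:90669011-90669070, plus strand: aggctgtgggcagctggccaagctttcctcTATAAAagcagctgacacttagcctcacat

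Cyp2e1, chr7:140763759-140763818, plus strand: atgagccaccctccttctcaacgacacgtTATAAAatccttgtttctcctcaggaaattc

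Meg3, chr12:109540936-109540995, plus strand: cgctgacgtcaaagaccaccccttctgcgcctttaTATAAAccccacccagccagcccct

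Grouping the 2215 highly variable genes with a mean of at least 5 eRPKM by their correlation over the IDs gave 46 clusters, and the 8 largest held 1656 genes. These clusters were made from the values and are descriptions. The 2 largest had 433 genes each. The first held Hp, Tff3, Hist1h1b and Lin28b with 8 neutrophil, 8 erythroid and 8 interferon-stimulated genes, and was lowest in tumour A of ID133765 and ID134668. The other held Sfmbt2, 30 microRNA rows and 5 macrophage genes, and was lowest in the low-Gapdh libraries ID133074 and ID133079; the part of RNA quality in it was not tested. A cluster of 230 genes held Xist, Fxyd2, Pax8 and Cdh16, a cluster of 172 held Igf2bp1, Afp and Rtl1, and a cluster of 77 held 7 drug metabolism genes with Saa1, Saa2, Orm1 and Steap4. The first principal component of these genes took 37.0% of the variance and the next 3 took 21.4%, 11.6% and 8.39%, so no single axis ordered the tumours.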

How the data were processed

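RNA depleted of ribosomal RNA (Ribozero) was made into TruSeq v2 libraries, per the labels' protocols; this kit does not mark strand, so overlapping antisense genes share reads. The authors deposited 1 table of exonic RPKM values (eRPKM) for 21671 genes. The submitters' processing notes name TopHat, TopHat2 2.0.8 and mm9; counter, annotation and duplicate handling are not stated there. Low values were whole multiples of a step for 18788 genes, with 100.0% of values whole reads within 0.001, which gave depth and lengths. The ceiling of reads per kilobase compresses differences of abundant genes, and near copies (Saa, Ces, Cyp, Mup) may share reads.

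Values were analysed as log2(eRPKM + 0.5), which understates differences of low genes, for genes at 1 eRPKM or more in 3 or more IDs, with the first tumour of each ID. Expected SD came from a lowess fit (fraction 0.3) of log2 SD on the mean. Spread was tested in 1 fit of 11 control, 7 Myc and 10 MycVD IDs on absolute deviations. The test was limma 3.58.1 in R 4.3.3, two-sided with Benjamini-Hochberg at 0.05, after the script was tested on simulated data. There 12 of 100 genes simulated with 3 times the SD in MycVD were called more variable than in Myc, and 52 of 100 with 6 times. A gene that was not called can thus still differ in spread. Of 13339 genes simulated with unchanged SD, 984 reached a ratio of 1.5. Gene pairs used 100000 resamples, or all orders for 7 Myc IDs. Python 3.11.15, statsmodels 0.14.6 and scipy 1.17.1 did the rest. A count test on the recovered reads was not run, since no group levels were compared.

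All MycVD library pairs differed by more than sampling noise (chi-square per degree of freedom at least 4.62). Named genes were the 8 highest ratios in each of 3 mean classes and the 3 lowest, the 5 largest rises and falls in spread with a mean of at least 5 eRPKM in both groups, the 3 most variable members of each list with the pair genes, and the 3 genes most like each of 12 anchor genes; other genes named as examples or as all calls of a list were chosen after their values were seen. The members and the 34 lists were chosen with earlier results of these data known, and 1 kidney list was added. Alternatives were other pseudocounts, filters, scalings, depth and Xist terms, tumour choices, trends and leaving out libraries.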

Additional observations from a re-analysis of the deposited data

Results flagged for a closer look

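Of 191 named genes checked for a single ID far from the other 9 (the gap to the nearest value over the whole range, Dixon's critical value 0.466 for 10 values), 10 passed, or 5.24%; chance flags about 1 in 20. ID133762 was the lowest tumour for Peg10 (3.75 eRPKM), Rian (0.597), Meg3 (0.0948), Sgce (0.564) and Ezr (10.4, others 23.0 to 47.9). Ezr, the membrane-cytoskeleton linker ezrin, was named for its likeness to Meg3. The same tumour was the highest for Igj, the immunoglobulin J chain (7.77, others 0.637 to 2.54). ID133079, a low-Gapdh library, was the lowest for G6pc (1.66, others 17.8 to 71.4) and for the p53 target Trp53inp1 (9.22, others 17.3 to 27.7). ID133074, also low in Gapdh, was the highest for the stress gene Nupr1 (22.8, others 2.05 to 7.18), and ID134660 for Cyp1a2 (28, others 0.0701 to 3.57). The causes were not tested.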

How the results depend on the processing

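No paired analysis was possible because the replicate numbers are in accession order and carry no label. With a ratio of at least 2 the count of highly variable genes was 1569 in place of 2931; without 1 ID it was 2931 to 3058. The count more variable than Myc tumours (540) was 223 with deviations from the median and 320 with the last tumour of each ID. It was 139 with a mean of at least 5 eRPKM, 1076 with no filter and 849 without the low-Gapdh libraries of all groups. Leaving out those libraries was an alternative chosen after seeing the data, as was the Xist term for the lists. The count was 540 to 610 without 1 MycVD ID and 384 to 594 without 1 Myc ID. The count less variable (23) was 14 with a depth term, 5 with deviations from the median, 54 with the last tumour, 0 with a mean of at least 5 eRPKM by limma, 12 with the mean over tumours and 345 with no filter. Against control livers the higher count (1364) was 741 with deviations from the median, 328 with a mean of at least 5 eRPKM and 2525 with no filter, and the lower count (520) was 167, 202 and 789. The results that reversed were r of H19 and Igf2 (-0.607 with a depth term), r of Meg3 and Dlk1 (-0.0657 without the low-Gapdh libraries) and the spread of Peg10 against control (-0.331 without ID133762, up to 0.456 without another ID). Their causes were not tested. Of alternative values for named genes, 3973 SD ratios stayed on their side of 1.5, 51 rose past it and 99 dropped below it; 313 pair results were the same, 9 gained and 9 lost the call. Of spread differences 595 were the same, 1 gained and 44 lost the call. Depth limits the microRNA rows printed, which had 0.4 to 11.2 mean reads.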

Other observations

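Gut epithelium genes were highly variable in 5 of 6 cases without moving together (median pairwise correlation -0.22). Fabp2 ran from 3.55 to 62.5 eRPKM with a median of 44.4 over the 10 IDs, below 20 eRPKM in ID133763, ID133764, ID134668 and both tumours of ID133765. Immediate early and heat shock genes were highly variable in 10 of 12 cases, with the chaperone Hspa1b at 1.21 to 21.3 eRPKM and highest in ID134664. Integrated stress response genes (5 of 12), p53 targets (6 of 10) and circadian clock genes (4 of 14) had median correlations of 0.20, -0.03 and -0.07 among their members.

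Rows named as small RNA genes were highly variable in 307 of 361 cases, far above the 21.5% of all genes. Their depth is low, and the part of counting error in this share was not tested gene by gene here.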
